A study of Mus musculus with 12 samples.

Results

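Glucose leaves the kidney tubule through sodium-glucose cotransporters and facilitated carriers, and the same tubule cells also make glucose. Of 24421 gene symbols in the deposited tables, 9 were examined here by name: the sugar carriers Slc5a2, Slc5a1, Slc2a2 and Slc2a5 and the gluconeogenic enzymes Pcx, Pck1, Pck2, Fbp1 and G6pc. All 9 were present, all were counted in every library and all passed the filter for low counts in every comparison. Kidneys of male C57BL/6 mice (the Tet2 line is given as C57BL/6J in the study's methods) at 6 weeks old gave 12 RNA-seq libraries in 4 groups of 3. These were unoperated kidneys (baseline) of WT mice and of mice labelled Tet2-/-, a knockout of the methylcytosine dioxygenase Tet2 bred from heterozygous pairs, and kidneys of both genotypes after ischemia-reperfusion (IR). In the IR groups the right renal pedicle was clamped for 60 min, the left kidney was removed, and the right kidney was taken 24 h later. No sham-operated kidney was sequenced, so ischemia, surgery and the loss of the other kidney cannot be told apart in any comparison of IR with baseline.

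In the proximal tubule, Slc5a2 (SGLT2) takes up most of the filtered glucose in the early segments and Slc5a1 (SGLT1) takes up the remainder in the late segment. Glucose then leaves the cell through Slc2a2 (GLUT2) on the blood side, while Slc2a5 (GLUT5) carries fructose. Gluconeogenesis runs in the same cells from lactate, glutamine and glycerol: pyruvate carboxylase (Pcx) makes oxaloacetate, the cytosolic and mitochondrial phosphoenolpyruvate carboxykinases (Pck1, Pck2) turn it into phosphoenolpyruvate, fructose-1,6-bisphosphatase (Fbp1) removes a phosphate further up the path, and glucose-6-phosphatase (G6pc) releases free glucose.

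Between 51007366 and 107969888 counts fell on the transcripts used in each library, and the 9 genes took 0.275% to 1.04% of them, so every value of the 9 genes rests on at least 493 counts. Differential expression was tested with edgeR's quasi-likelihood test, and a gene is said to be called where its adjusted p was under 0.05 and its log2 fold change was beyond 1 in either direction. Tet2 itself did not follow the labels at baseline. Its level was 9.15, 6.25 and 7.33 FPKM (fragments per kilobase of transcript, scaled to library depth) in WT baseline libraries, 9.24, 16.6 and 10.3 in those labelled Tet2-/-, 9.34, 3.97 and 3.86 after IR in WT and 2.64, 3.20 and 1.76 after IR in the Tet2-/- label. The deposited counts are given per transcript and do not show whether the deleted part of Tet2 was read, and the groups are therefore called by their labels. The library of WT IR replicate 1 stood apart from its group: 7 tubular injury markers summed to 1650.4 FPKM there, against 5910.4 and 7859 in the other WT IR libraries and 11985 to 25988 in the Tet2-/- IR libraries. Summed FPKM of 10 fat cell markers was 153 and 303 in WT baseline replicates 2 and 3 and 615 in Tet2-/- IR replicate 3, against 19.7 to 121 in the other 9 libraries. All 19 proximal tubule markers were above 0.1 FPKM in every library. Values are given below in the order of replicates 1, 2 and 3. The labels do not say that a number joins mice of different groups, and p-values measure the spread between these libraries only.

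The DNA before the start of 4 of the 9 genes is shown because 3 of them (G6pc, Fbp1 and Slc2a5) were lower after IR in the kidneys labelled Tet2-/- and the other, Pck1, was not called. The windows hold the 250 bases before the deposited transcript start on mm9, read from the reference assembly of that build, 5′ to 3′ on the strand of the gene. Capitals mark matches on either strand to 6 short motifs. TATAAA is the core promoter box bound by the general initiation machinery. The box bound by factor NF-Y reads CCAAT. The core of the cAMP response element reads TGACG, and an element found in liver and kidney promoters reads GTTAAT. Sites of nuclear receptors share AGGTCA as a core, and HNF4 sites hold CAAAG. None of the 6 motifs contains another. G6pc lies at chr11:101229030-101239217 on the plus strand, with its window at chr11:101228780-101229029, Fbp1 at chr13:62966113-62989642 on the minus strand, with its window at chr13:62989643-62989892, Slc2a5 at chr4:149493453-149518277 on the plus strand, with its window at chr4:149493203-149493452, and Pck1 at chr2:172978574-172984754 on the plus strand, with its window at chr2:172978324-172978573.
G6pc: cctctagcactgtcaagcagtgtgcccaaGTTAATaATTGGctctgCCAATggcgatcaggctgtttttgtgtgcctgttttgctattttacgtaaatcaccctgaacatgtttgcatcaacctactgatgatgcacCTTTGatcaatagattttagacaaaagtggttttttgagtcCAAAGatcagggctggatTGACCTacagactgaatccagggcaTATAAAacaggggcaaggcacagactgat
Fbp1: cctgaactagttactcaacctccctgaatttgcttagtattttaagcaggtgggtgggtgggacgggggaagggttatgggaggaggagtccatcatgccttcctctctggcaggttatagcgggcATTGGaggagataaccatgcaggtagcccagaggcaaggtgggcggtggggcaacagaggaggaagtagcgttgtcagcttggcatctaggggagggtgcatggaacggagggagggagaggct
Slc2a5: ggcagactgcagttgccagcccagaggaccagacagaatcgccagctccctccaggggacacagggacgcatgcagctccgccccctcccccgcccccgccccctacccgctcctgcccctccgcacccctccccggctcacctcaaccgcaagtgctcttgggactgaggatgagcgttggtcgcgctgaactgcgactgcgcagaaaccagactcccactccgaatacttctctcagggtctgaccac
Pck1: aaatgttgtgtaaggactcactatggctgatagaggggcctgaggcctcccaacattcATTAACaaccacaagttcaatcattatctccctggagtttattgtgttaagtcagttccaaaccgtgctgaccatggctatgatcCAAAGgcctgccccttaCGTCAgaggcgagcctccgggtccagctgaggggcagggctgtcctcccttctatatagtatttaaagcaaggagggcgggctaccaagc

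The G6pc window held 5 of the 6 motifs, with TATAAA at positions -29 to -24 before the start, AGGTCA at -54 to -49 on the minus strand and GTTAAT at -221 to -216. The Pck1 window held 3 motifs, with the cAMP response element core at -90 to -86 and GTTAAT at -192 to -187, both read on the minus strand. The Fbp1 window held a single CCAAT at -124 to -120 on the minus strand, and the Slc2a5 window, with 66.4% G and C, held none. No motif of this set was in all 3 windows of the genes that fell, and CCAAT was in those of G6pc and Fbp1. Among the 250-base windows of 27293 starts in the files, 11.6% held TATAAA (1 of the 9 genes), 34.5% CCAAT (4), 19.9% TGACG (1), 5.78% GTTAAT (2), 12.8% AGGTCA (2) and 46.2% CAAAG (5). A match describes letters and is not a binding site. The deposited starts of G6pc, Slc2a5 and Slc5a2 are not starts in the mm9 annotation used here, so their windows depend on the RefSeq model the authors counted on.

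The 9 genes spanned more than 2 orders of magnitude per length in WT baseline kidneys. Pck1 was highest, at a mean of 1111 ± 380 FPKM (SD, n = 3), 2.05 times Fbp1 at 541 ± 86.2, and the libraries of these genes did not overlap. G6pc (128 ± 56.2), Pcx (114 ± 16.2) and Slc5a2 (103 ± 52.8) followed and overlapped one another. The next 3, Slc2a2 (24.4 ± 9.66), Slc2a5 (18.3 ± 4.05) and Slc5a1 (16.5 ± 2.69), overlapped as well, and Pck2 was lowest at 3.90 ± 0.479. Kidneys labelled Tet2-/- had the same 2 genes on top and the same gene at the bottom at baseline. After IR in that label the order differed at the low end: Slc2a5 dropped to the last place at 1.94 ± 0.428 FPKM, below all 3 libraries of Pck2 (6.60 ± 1.38), and G6pc, at 15.1 ± 6.33, lay below Slc2a2 (21.4 ± 3.34) with overlapping libraries. In WT kidneys after IR, G6pc (41.4 ± 13.1) still lay above Slc2a2 (33.3 ± 3.79), also with overlap.

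**Figure D1:**
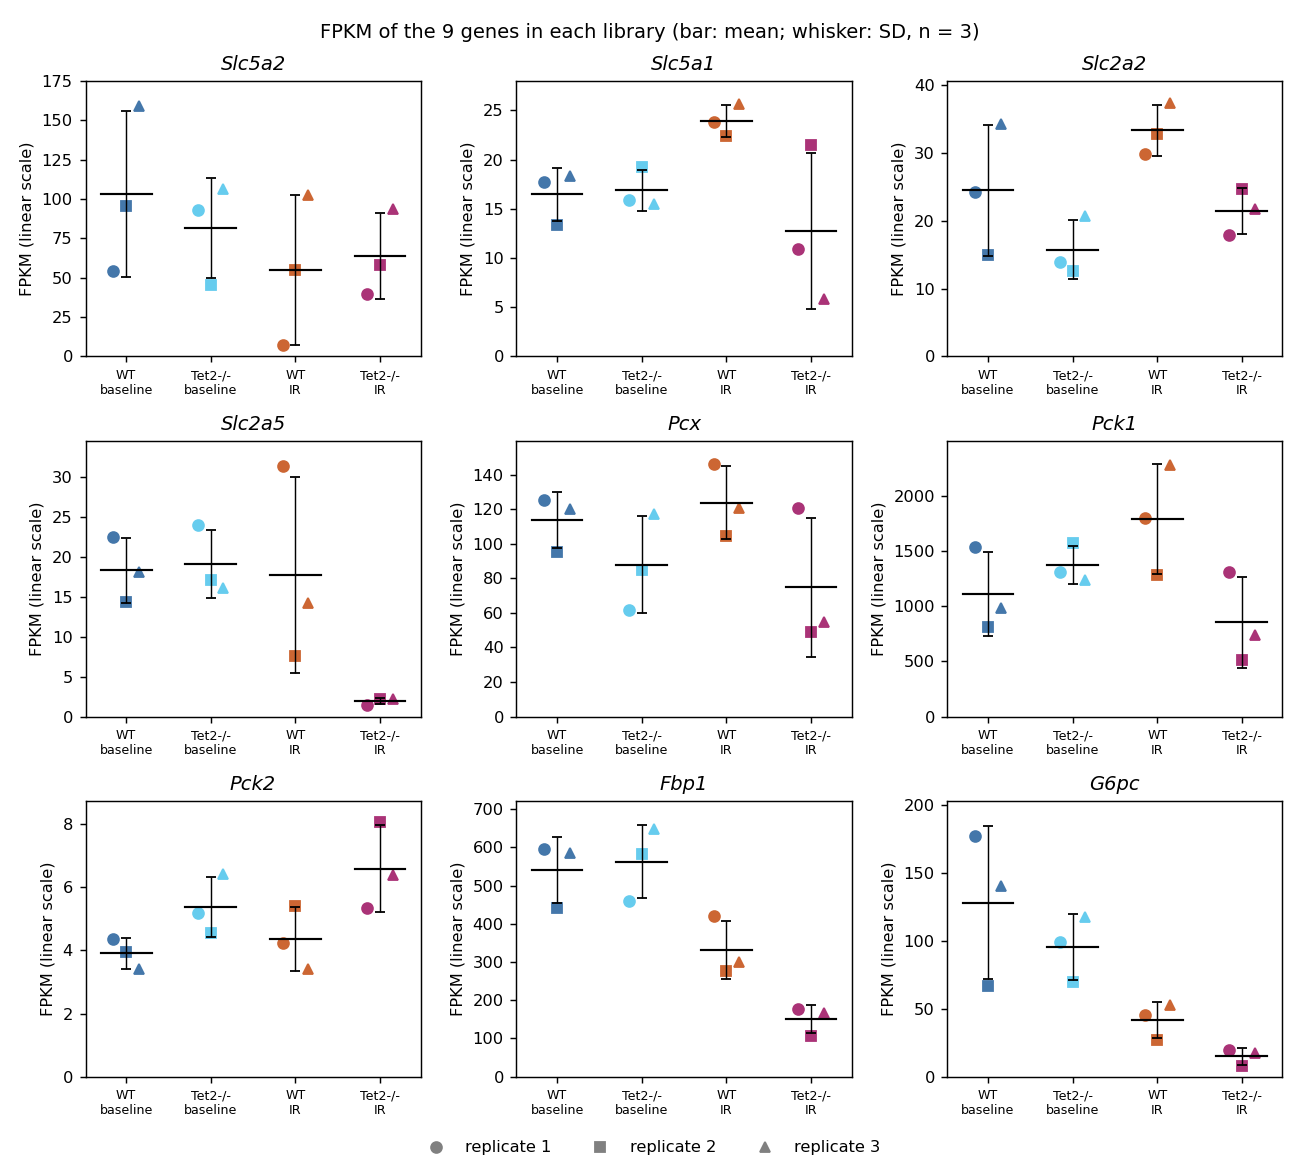
FPKM of each of the 9 genes (vertical axis, linear, from 0, own scale per panel) in the 12 libraries, grouped along the horizontal axis as WT baseline, Tet2-/- baseline, WT IR and Tet2-/- IR. Symbols give the replicate number, bars the mean and whiskers the SD of 3 libraries. The Tet2-/- IR libraries of Slc2a5 sit between 1.44 and 2.19 FPKM and those of G6pc between 7.87 and 19.8, below every other library of the same gene.

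Slc2a5 (NM_019741), the fructose carrier, showed the largest difference of the group. It was measured at 22.5, 14.4 and 18.2 FPKM in WT baseline kidneys and at 24.02, 17.1 and 16.1 FPKM in the Tet2-/- label. After IR it was at 31.4, 7.63 and 14.3 FPKM in WT kidneys and at 1.44, 2.19 and 2.18 FPKM in the Tet2-/- label. Every library of the Tet2-/- IR group was below every other library, while WT IR libraries spread on both sides of baseline. IR against baseline gave a log2 fold change of -3.56 (SE 0.23, edgeR adjusted p = 9.47e-05), a level 11.8-fold lower, in the Tet2-/- label and of -0.12 (SE 0.46, adjusted p = 0.905) in WT kidneys. These effects differed by -3.40 on the log2 scale (SE 0.58, adjusted p = 0.0079 for the edgeR interaction). After IR the Tet2-/- label was 9.80-fold lower than WT (log2 fold change -3.29, SE 0.52, adjusted p = 0.0172). The comparison after IR lost its call without Tet2-/- IR replicate 1 (adjusted p = 0.0623) and without Tet2-/- IR replicate 2 (adjusted p = 0.0508), at log2 fold changes of -3.12 and -3.33.

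Slc5a2 (NM_133254, chr7:135409211-135415947, plus strand), the main apical glucose carrier, was not called in any comparison. It was at 54.3, 95.8 and 159 FPKM in WT baseline kidneys and at 92.9, 45.4 and 106 FPKM in the Tet2-/- label. After IR the values were 7.48, 54.9 and 102 FPKM in WT kidneys and 39.5, 58.3 and 93.4 FPKM in the Tet2-/- label. All 4 groups overlapped, and the lowest value was that of WT IR replicate 1, the library with the lowest injury marker sum of the IR groups. The fitted standard errors for Slc5a2 were the widest or near the widest of the 9 genes, from 0.41 to 1.04 on the log2 scale. Its measured log2 fold changes of -0.93 for IR in WT (adjusted p = 0.549) and -0.60 in the Tet2-/- label were also under the fold threshold. The last 1055 bases of the span of Slc5a2 overlap the gene BC017158 on the opposite strand. Whether the counting used strand is not given in the sources used here, so reads of the overlap cannot be assigned to either gene.

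Slc5a1 (NM_019810, chr5:33446868-33505348, plus strand), the high-affinity glucose carrier of the late proximal tubule, was at 17.7, 13.4 and 18.3 FPKM in WT baseline kidneys and at 15.9, 19.3 and 15.5 FPKM in the Tet2-/- label. In the IR groups it was measured at 23.8, 22.3 and 25.6 FPKM in WT kidneys and at 10.9, 21.4 and 5.88 FPKM in the Tet2-/- label. All 3 WT IR libraries lay above all WT baseline libraries and above all Tet2-/- IR libraries. With all libraries of each comparison and no block, edgeR called none of these differences when each was fitted on its own: the log2 fold change was 0.48 (SE 0.17, adjusted p = 0.163) for IR in WT, -0.70 (SE 0.37, adjusted p = 0.161) for IR in the Tet2-/- label and -1.05 (SE 0.39, adjusted p = 0.128) between the genotype labels after IR. The interaction was -1.15 (SE 0.45, adjusted p = 0.126). Between the labels after IR, DESeq2 (-1.06, adjusted p = 0.0340) and a fit of all 12 libraries (-1.05, adjusted p = 0.0409) called Slc5a1 lower, and with the replicate block the interaction was called (-1.30, adjusted p = 0.0343). Without Tet2-/- IR replicate 2, the highest library of its group, it was called lower by IR in that label (-1.20, adjusted p = 0.0123), after IR (-1.58, adjusted p = 0.0449) and in the interaction (-1.73, adjusted p = 0.0152).

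Slc2a2 (NM_031197, chr3:28596825-28627282, plus strand), the basolateral exit route, was at 24.2, 14.9 and 34.2 FPKM in WT baseline kidneys and at 13.9, 12.6 and 20.7 FPKM in the Tet2-/- label. IR libraries gave 29.8, 32.7 and 37.3 FPKM in WT kidneys and 17.9, 24.6 and 21.7 FPKM in the Tet2-/- label. The 3 Tet2-/- IR libraries lay below the 3 WT IR libraries. That difference had an edgeR adjusted p of 0.0447 and a log2 fold change of -0.75 (SE 0.18), a level 1.68-fold lower. This is under the fold threshold of 1 on the log2 scale and so was not called. With any single library left out, its adjusted p was from 0.0639 to 0.120. The labels differed by -0.54 at baseline (SE 0.32, adjusted p = 0.512), and the interaction was -0.16 (SE 0.40, adjusted p = 0.833). IR against baseline gave 0.38 (SE 0.30, adjusted p = 0.492) in WT and 0.18 (SE 0.22, adjusted p = 0.526) in the Tet2-/- label.

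Pcx (NM_008797, chr19:4594319-4621752, plus strand), which feeds oxaloacetate into the path, was at 126, 95.4 and 121 FPKM in WT baseline kidneys and at 61.7, 84.9 and 118 FPKM in the Tet2-/- label. The IR values were 146, 104 and 121 FPKM in WT kidneys and 121, 48.8 and 54.7 FPKM in the Tet2-/- label. The groups overlapped and no comparison was called. Tet2-/- IR replicate 1 was above both other libraries of its group by more than 2-fold, and without that library Pcx was called lower after IR in the Tet2-/- label. Another deposited transcript of Pcx, with a more distant start, had 99.7% of the counts of the transcript used, so the tables do not separate the 2 forms. The gene Lrfn4 lies within Pcx on the opposite strand, and without strand their reads cannot be told apart where exons overlap.

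Pck1 (NM_011044), the cytosolic enzyme that sets much of the flux into gluconeogenesis, was at 1538, 809 and 988 FPKM in WT baseline kidneys and at 1314, 1570.4 and 1236 FPKM in the Tet2-/- label. After IR its level was 1802, 1285 and 2282 FPKM in WT kidneys and 1313, 510.2 and 742 FPKM in the Tet2-/- label. Tet2-/- IR replicates 2 and 3 were the lowest of all 12, but Tet2-/- IR replicate 1 lay within the WT IR range. Pck1 was not called by edgeR: the log2 fold change was 0.64 (SE 0.35, adjusted p = 0.324) for IR in WT, -0.93 (SE 0.39, adjusted p = 0.0874) for IR in the Tet2-/- label, -1.17 (adjusted p = 0.1495) between labels after IR and -1.52 (adjusted p = 0.104) for the interaction. Without Tet2-/- IR replicate 1, Pck1 was called lower after IR in the Tet2-/- label. DESeq2 called it lower between the labels after IR (-1.17, adjusted p = 0.0242) and in the interaction (-1.57, adjusted p = 0.0234).

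Pck2 (NM_028994, chr14:56159103-56168854, plus strand), the mitochondrial form, had a fitted log2 fold change above 0 in both genotype comparisons, the only member to do so. It was at 4.36, 3.94 and 3.41 FPKM in WT baseline kidneys and at 5.18, 4.57 and 6.43 FPKM in the Tet2-/- label. After IR it was at 4.25, 5.42 and 3.42 FPKM in WT kidneys and at 5.34, 8.08 and 6.38 FPKM in the Tet2-/- label. The baseline groups did not overlap, as held for 3.06% of all genes tested on the higher side and 16.5% on the lower. The log2 fold change was 0.56 (SE 0.17, adjusted p = 0.311) at baseline and 0.50 (SE 0.18, adjusted p = 0.127) after IR, and neither was called.

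Fbp1 (NM_019395), which removes phosphate from fructose 1,6-bisphosphate, was at 596, 442 and 586 FPKM in WT baseline kidneys and at 459, 582 and 649 FPKM in the Tet2-/- label. After IR the values were 419.5, 276 and 299.6 FPKM in WT kidneys and 176, 108 and 168 FPKM in the Tet2-/- label. The 2 baseline groups overlapped, all WT IR libraries lay below them, and all Tet2-/- IR libraries lay below WT IR. IR against baseline gave a log2 fold change of -0.77 (SE 0.22, edgeR adjusted p = 0.103) in WT, which was not called, and of -2.15 (SE 0.28, adjusted p = 0.0011) in the Tet2-/- label, a level 4.44-fold lower. The Tet2-/- label was 2.33-fold lower than WT after IR (log2 fold change -1.22, SE 0.28, adjusted p = 0.0419), and the interaction was -1.33 (SE 0.37, adjusted p = 0.0460). Both of these calls were close to the threshold. The comparison after IR was lost when any of the 6 libraries was left out (adjusted p from 0.0506 to 0.134), and the interaction was lost without 10 of the 12 libraries (adjusted p from 0.0511 to 0.110), all except WT IR replicate 2 and Tet2-/- IR replicate 3, while the direction stayed lower each time.

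G6pc (NM_008061), which forms free glucose in the last step, was at 177, 66.8 and 140.1 FPKM in WT baseline kidneys and at 98.9, 69.9 and 118 FPKM in the Tet2-/- label. In the IR groups it was measured at 45.02, 26.9 and 52.4 FPKM in WT kidneys and at 19.8, 7.87 and 17.6 FPKM in the Tet2-/- label. Every IR library was below every baseline library, and every Tet2-/- IR library was below every WT IR library. In the Tet2-/- label the log2 fold change for IR was -2.90 (SE 0.40, edgeR adjusted p = 0.0013), a level 7.46-fold lower. In WT kidneys it was -1.68 (SE 0.42, adjusted p = 0.0804), which was not called. With the replicate number as a block the WT comparison gave -1.63 and an adjusted p of 0.0064, which was called. The effects of IR in the 2 labels differed by -1.17 (SE 0.62, adjusted p = 0.247 for the interaction), and the labels after IR by -1.56 (SE 0.43, adjusted p = 0.0674), neither of which was called. With the block both were called, the interaction at -1.32 (adjusted p = 0.0289) and the labels after IR at -1.61 (adjusted p = 0.0125). DESeq2 called G6pc for IR in WT (-1.67, adjusted p = 0.00086) and between the labels after IR (-1.55, adjusted p = 0.0034), as did a fit of all 12 libraries (adjusted p = 0.0491 and 0.0350). Whether the effect of IR on G6pc differed between the labels thus depended on the fit.

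For IR in WT kidneys the fitted values of the 9 genes lay on both sides of 0 and edgeR called 0 of 9, where 0.887% of the 16015 genes tested were called lower and 1.46% higher. At an unadjusted p under 0.05, 2 members were lower (G6pc and Fbp1) and 1 higher (Slc5a1), as were 11.3% and 11.4% of all genes tested. These were the members whose groups did not overlap, against 10.4% of all tested genes lower without overlap and 18.9% higher. DESeq2 and the replicate block each called 1 member lower, G6pc. The median log2 fold change of the 9 genes was 0.06, beside -0.03 over all genes tested. Over all genes edgeR called 142 lower and 234 higher, the replicate block 559 and 428, and DESeq2 490 and 488.

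IR in the kidneys labelled Tet2-/- lowered 3 of 9 genes (Slc2a5, G6pc and Fbp1) by edgeR, where 11.6% of the 16359 genes tested were called lower and 12.7% higher. No member was called higher by edgeR or DESeq2. At an unadjusted edgeR p under 0.05, 4 members were lower (these 3 genes and Pck1) and 0 higher. Of all genes, 24.3% and 27.5% had an unadjusted p under 0.05 on the lower and the higher side. In FPKM, Slc2a5, G6pc and Fbp1 were the members without overlap between the groups. So were 17.9% of all tested genes on the lower side and 40.5% on the higher side. With counts scaled by TMM, Pck1 was lower without overlap too, and the share of all genes was counted in FPKM only. The lowered genes were 1 of 4 carriers and 2 of 5 enzymes, and the median over the 9 genes was -0.70, beside 0.04 over all genes tested. Scaling by total counts rather than TMM, the trimmed mean scaling of the edgeR fits, moved the calls over all genes. They went from 1896 lower and 2078 higher to 1397 and 2860, and the count of members stayed at 3. Leaving out Tet2-/- IR replicate 1 raised the count from 3 to 5 by adding Pck1 (-1.38, adjusted p = 0.0275) and Pcx (-1.04, adjusted p = 0.0461). Leaving out Tet2-/- IR replicate 2 raised it to 4 by adding Slc5a1 (-1.20, adjusted p = 0.0123). The 3 calls stayed in place whichever library was left out, with log2 fold changes from -3.72 to -3.37 for Slc2a5, -3.14 to -2.55 for G6pc and -2.29 to -1.90 for Fbp1.

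At baseline no member was called between the genotype labels, where 0% of the 16086 genes tested were called lower and 0.0124% higher. The log2 fold changes ran from -0.54 for Slc2a2 to 0.56 for Pck2, with adjusted p from 0.311 to 0.814, and only Pck2, which was higher, had an unadjusted p under 0.05, as had 8.2% of all genes on the lower and 3.56% on the higher side. DESeq2 also called 0 members here. After IR the Tet2-/- label was lower than WT for 2 of 9 genes (Slc2a5 and Fbp1) and higher for 0, by DESeq2 too, where 3.85% of 16186 genes tested were called lower and 2.3% higher. In 5 members (Slc5a1, Slc2a2, Slc2a5, Fbp1 and G6pc) all Tet2-/- IR libraries lay below all WT IR libraries, against 14.6% of genes tested, and 22% lay without overlap on the other side, with 0 members. At an unadjusted p under 0.05, 6 members were lower and 1, Pck2, higher, beside 15% and 13.9% of genes tested. Neither call remained without Tet2-/- IR replicate 1 or without Tet2-/- IR replicate 2, and the latter fit called Slc5a1 instead. Slc2a5 alone was called when any of the other 4 libraries was left out. DESeq2 called 5 members lower. The median log2 fold change of the 9 genes was -1.05, beside 0.04 over all genes tested. The interaction, called at an adjusted p under 0.05 without a fold threshold, was lower for the same 2 members, where 5.39% of 16741 genes tested were called lower and 3.79% higher, and 12.6% and 14.6% had an unadjusted p under 0.05 on the lower and the higher side. At that p 4 members were lower (Slc2a5, Fbp1, Pck1 and Slc5a1) and 0 higher. DESeq2 called 3 lower, adding Pck1, and 0 higher, and the replicate block gave 4 lower, adding G6pc and Slc5a1. The median was -1.15 beside 0.10. Scaling by total counts turned the 902 lower and 634 higher calls of all genes into 700 and 1129, with the same number of members called. The comparisons share libraries with one another, so their counts are not separate pieces of evidence. Without WT baseline replicates 2 and 3, which held fat cell transcripts, the interaction was called for 0 members, with Slc2a5 at -3.16 (adjusted p = 0.111) and Fbp1 at -1.25 (adjusted p = 0.233). That fit held 1 WT baseline library and called 8 lower and 2 higher of all 17237 genes tested. Leaving out 1 library left 1 or 2 members called in the interaction, Slc2a5 each time.

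**Figure D2:**
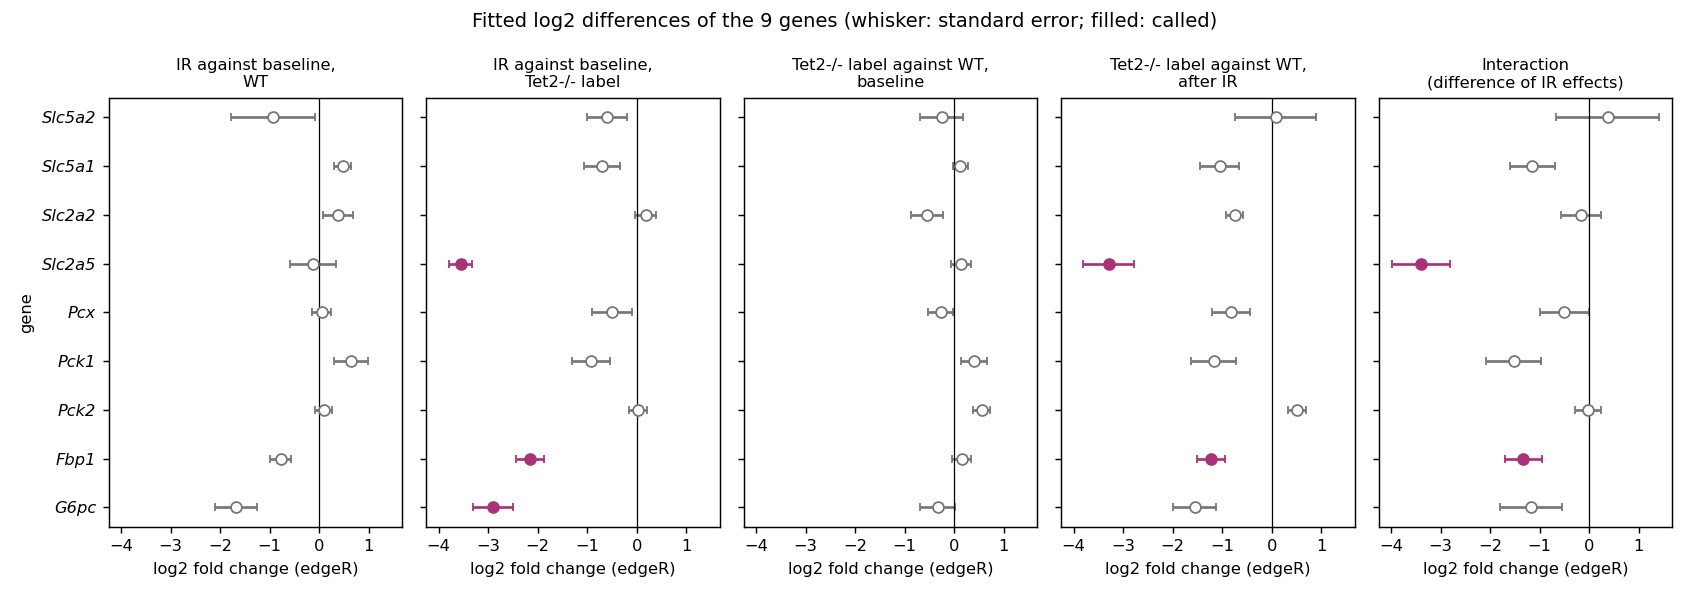
Fitted log2 fold change (horizontal axis, edgeR) of each of the 9 genes (vertical axis) in the 4 pairwise comparisons and the interaction, with the standard error as whisker and filled points for called genes. Slc2a5 lies at -3.56, -3.29 and -3.40 in the 3 panels that hold the Tet2-/- IR libraries, while no point is filled for IR in WT or for baseline.

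By IR in the Tet2-/- label, most proximal tubule markers were called lower, beside 3 of the 9 members. The median log2 fold change of the members was 0.06 for IR in WT and -0.70 for IR in the Tet2-/- label. In bulk kidney RNA, fewer proximal tubule cells and less RNA per cell cannot be told apart. Of 19 proximal tubule markers, 14 were called lower by IR in the Tet2-/- label (median log2 fold change -1.52), 1 by IR in WT (median -0.18, and 3 lower and 1 higher with the replicate block), 8 between the labels after IR (median -1.49) and 0 at baseline, where 0 of 19 had an unadjusted p under 0.05 and DESeq2 called 0. Their summed FPKM was 38174 to 56973 in WT baseline, 55844 to 56906 in Tet2-/- baseline, 25872 to 29384 in WT IR and 16186 to 24767 in Tet2-/- IR libraries. A single marker, Kap, looked up after the values were seen, made up 76.5% to 90.6% of this sum. The other 18 summed to 6912 to 7664 FPKM in WT baseline, 6099 to 8120.3 in Tet2-/- baseline, 5635 to 6189.8 in WT IR and 2317 to 2918 in Tet2-/- IR libraries. For IR in the Tet2-/- label the log2 fold changes of Slc2a5, G6pc and Fbp1 lay below the median of these markers and those of the other 6 members above it. The part of cell loss in the members' values was not tested. Injury markers rose in both labels: 7 of 7 were called higher in the Tet2-/- label and 6 of 7 in WT, with Havcr1 (KIM1) at 5.29 and 6.26 and Lcn2 (NGAL) at 6.17 and 9.13 on the log2 scale in WT and in the Tet2-/- label.

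Some other sugar carriers also fell with IR in the Tet2-/- label. Of 17 further carriers and partners, 16 were tested in each IR comparison, and 6 were called lower and 1 higher in the Tet2-/- label (median -0.91). Over all genes tested there, 11.6% were called lower and 12.7% higher. In WT edgeR called 0 of 16 (median -0.46), 4 were lower and 2 higher at an unadjusted p under 0.05, and DESeq2 called 1 higher. Slc37a4, which moves glucose 6-phosphate to the G6pc enzyme inside the endoplasmic reticulum, was at 151, 134 and 128 FPKM in WT baseline, 120.3, 124 and 160.2 in Tet2-/- baseline, 107, 70.5 and 105 in WT IR and 36.6, 27.0 and 39.6 in Tet2-/- IR libraries. Its Tet2-/- IR libraries were all below the rest, and it was called by IR in that label (log2 fold change -2.22, SE 0.24), between labels after IR (-1.55, SE 0.27) and in the interaction (-1.57, SE 0.33). When each comparison was fitted on its own libraries without a block, G6pc itself was called in the first of these comparisons. The sodium-coupled inositol carrier Slc5a11 was at 16.1, 7.31 and 9.72 FPKM in WT IR and at 1.995, 3.17 and 3.99 FPKM in Tet2-/- IR libraries (after IR -1.94, SE 0.37, called). Slc5a9 (-1.32 between the labels after IR) and Slc5a10 (-2.24 in the interaction) were also called lower. Slc5a10 was at 242, 83.8 and 117 FPKM in WT IR and at 66.6, 38.6 and 29.7 FPKM in Tet2-/- IR libraries, against 65.1 to 109 at baseline. Slc5a4a was called lower by IR in that label from at most 0.282 FPKM at baseline to at most 0.006 FPKM, a range of 2 counts or fewer per library, and its reads can be split with its paralog Slc5a4b. Slc2a1 (GLUT1), the carrier of most other cells, moved the other way: it was at 91.3, 48.4 and 39.0 FPKM in Tet2-/- IR libraries against 24.3, 32.2 and 23.7 in WT IR and 17.6 to 22.7 at baseline, and was called higher by IR in the Tet2-/- label (1.27, SE 0.30). Pdzk1ip1, the accessory protein of SGLT2, was not called in any comparison (IR in the Tet2-/- label -0.60, adjusted p = 0.171).

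Steps shared with glycolysis and the entry of substrates were mixed. Of 31 such genes, 7 were called lower and 4 higher by IR in the Tet2-/- label (median -0.44). The shares over all genes tested were 11.6% and 12.7%. IR in WT gave 0 lower and 3 higher (30 tested, median 0.08), beside 0.887% and 1.46% of all genes. There 2 were lower and 7 higher at an unadjusted p under 0.05, and DESeq2 called 0 lower and 3 higher. In WT the 3 were the glutamine carrier Slc38a3 (1.84, SE 0.24), the Fbp1 paralog Fbp2 (1.79, SE 0.24) and glutamate dehydrogenase Glud1 (1.31, SE 0.24). Fbp2 and Glud1 were also called higher in the Tet2-/- label (2.47 and 1.502), while Slc38a3 was not (0.42). Among those lower in the Tet2-/- label were the lactate carrier Slc5a8 (-3.36, SE 0.26), glycerol kinase Gk (-2.67, SE 0.17), and the mitochondrial pyruvate carrier subunit Mpc2 (-1.94, SE 0.14). Slc16a1, a monocarboxylate carrier of most tissues, was called higher there (2.86, SE 0.37). Between labels after IR, 2 of 30 were called lower, Slc5a8 (-2.71) and Gk (-2.46), and 1 higher, Slc16a1 (1.55). In the interaction 7 were lower, led by Slc5a8 (-2.67), Gk (-2.30) and Slc25a10 (-1.25), and 1 higher, Slc16a1 (1.998).

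Genes that regulate these pathways were called lower by IR in the Tet2-/- label in 5 of 23 cases and higher in 0 (median -0.26). Over all genes tested, 11.6% were called lower and 12.7% higher. Of the 23, 1 was higher at an unadjusted p under 0.05 and 0 by DESeq2. In WT, IR gave 0 of 23 called by edgeR or DESeq2 (median -0.16), with 1 lower and 0 higher at an unadjusted p under 0.05. Klf15, a factor that induces gluconeogenic genes in fasting, was at 71.5, 41.4 and 59.6 FPKM in WT baseline, 45.2, 30.3 and 30.5 in WT IR and 12.4, 11.6 and 19.1 in Tet2-/- IR libraries. It was called by IR in the Tet2-/- label (-2.10, SE 0.26) and between the labels after IR (-1.37, SE 0.28), as the only called gene of the 23. Sik1 (-1.498) and Lpin1 (-1.30) were the next in the Tet2-/- label. The mean of Sik1 was 61.3 FPKM in Tet2-/- baseline and 34.9 in WT baseline libraries. After IR it was 25.9 in the Tet2-/- label and 31.7 in WT. In the interaction 3 of 23 were called lower, among them the parathyroid hormone receptor Pth1r (-1.06) and Esrra (-1.03). Hnf4a had an adjusted p of 0.0116 for IR in the Tet2-/- label and of 0.0407 between the labels after IR, but log2 fold changes of -0.88 and -0.78, under the fold threshold. Ppargc1a was at -0.69 (adjusted p = 0.0282) and -0.62 (adjusted p = 0.126) in the same comparisons and was not called.

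A list of glycolytic steps and of the pyruvate dehydrogenase complex with its kinases was higher in 4 and lower in 1 of 17 genes by IR in the Tet2-/- label (median 0.15). Over all genes tested there, 12.7% were called higher and 11.6% lower. In WT edgeR called 0 of 16 (median 0.01), 1 was lower and 3 higher at an unadjusted p under 0.05, and DESeq2 and the replicate block each called 1 higher. Hexokinase 2 (Hk2) was at 1.23, 2.61 and 1.37 FPKM in Tet2-/- IR libraries and at 0.216, 0.799 and 0.237 FPKM in WT IR libraries, and was called higher by IR in that label (3.95, SE 0.39) and in the interaction (3.68, SE 0.82). Pdk4, a pyruvate dehydrogenase kinase that, like Pdk2, keeps pyruvate from oxidation and so is no step of glycolysis, was at 189, 22.7 and 41.6 FPKM in Tet2-/- IR and at 4.25, 7.52 and 8.10 FPKM in WT IR libraries (after IR 3.57, SE 0.82, called). Pdk2 (-1.74 for IR in the Tet2-/- label, -1.15 between labels after IR) and Pklr (-1.49 between labels after IR, -1.57 in the interaction) were called lower, as was Pfkm in the interaction (-0.95). At baseline edgeR called no gene of the 4 pathway lists between the labels. At an unadjusted p under 0.05, 1, 1, 2 and 3 genes of the carriers, the shared steps, the regulators and the list with the glycolytic steps were lower and 2, 4, 2 and 0 higher, and DESeq2 called 1 gene lower, of the list with the glycolytic steps.

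**Figure D3:**
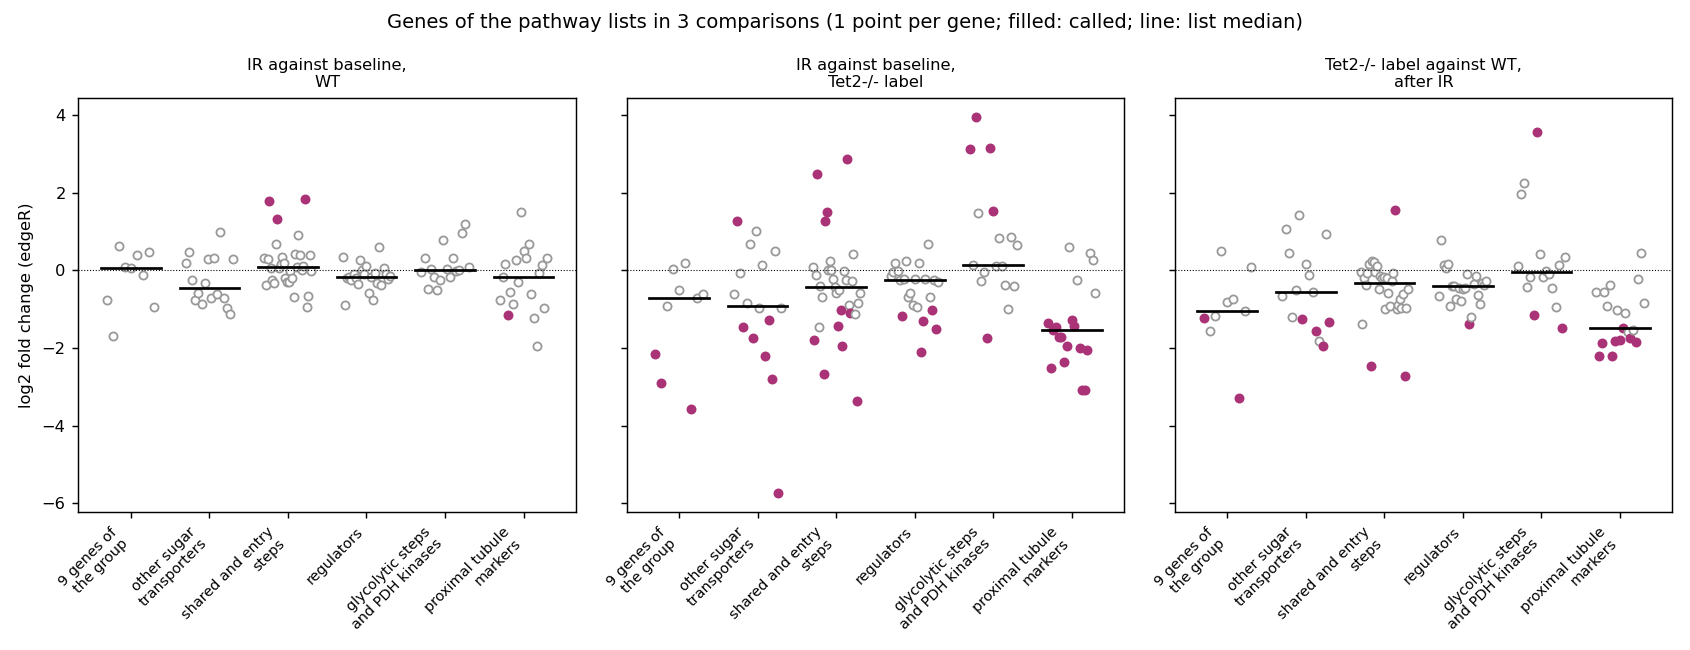
Log2 fold change (vertical axis, edgeR) of every tested gene of the 9 members, the 4 pathway lists and the proximal tubule markers (horizontal axis) in 3 comparisons, with filled points for called genes and a line at each median. The proximal tubule median is -0.18 for IR in WT and -1.52 for IR in the Tet2-/- label, where the medians of the 9 genes are 0.06 and -0.70.

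The genes whose pattern over the 12 libraries was most like each member were found by Pearson correlation of log2(FPKM + 1) over the 12212 genes whose mean level reached 1 FPKM. The 12 libraries share the group structure, so these values describe likeness only. Slc2a5 was followed by the brush border glucosidase Mgam (r = 0.985) and Vwce (0.983), Fbp1 by 4931406C07Rik (0.987) and the organic anion carrier Slc22a22 (0.984), and G6pc by Ces1e (0.965) and Zrsr1 (0.962). Mgam was at a mean of 9.08 FPKM in WT IR and 2.13 in Tet2-/- IR libraries, and Slc22a22 at 10.1 and 1.81. Slc2a2 was closest to the urate and sugar carrier Slc2a9 (0.942) and Cog6 (0.933), Slc5a1 to Nfic (0.944) and Adck1 (0.944), Pcx to Retsat (0.939) and Acad11 (0.931), Pck1 to Bnip3 (0.923) and Ranbp9 (0.882), and Pck2 to Smyd2 (0.868) and Il3ra (0.857). Slc5a2 was closest to BC017158 (0.955), the gene that overlaps it, and then to the lactate carrier Slc5a12 (0.918). Within the 9 genes the closest pairs were G6pc with Fbp1 (0.954) and Slc2a5 with Fbp1 (0.886), while Pck2 reached no more than -0.03 with any other member.

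Ratios within a library compare related genes without a scale between libraries. The ratio of Slc5a2 to Slc5a1 was 3.07, 7.16 and 8.68 in WT baseline and 5.86, 2.36 and 6.84 in Tet2-/- baseline libraries. After IR it was 0.314, 2.46 and 3.997 in WT and 3.61, 2.72 and 15.9 in the Tet2-/- label, so that WT IR replicate 1 was the only library with more Slc5a1 than Slc5a2 per length. Pck1 exceeded Pck2 in all libraries, by 205 to 353 times in WT baseline, 192 to 344 in Tet2-/- baseline, 237 to 668 in WT IR and 63.2 to 246 in Tet2-/- IR libraries. Slc2a2 to Slc2a1 was 1.28, 0.793 and 1.94 in WT baseline, 0.675, 0.555 and 1.11 in Tet2-/- baseline, 1.23, 1.02 and 1.57 in WT IR and 0.196, 0.508 and 0.557 in Tet2-/- IR libraries. The last group was below 1 throughout and overlapped Tet2-/- baseline. The mean log2 ratio of Slc5a2 to Slc5a1 differed between IR and baseline by -1.98 in WT and by 0.24 in the Tet2-/- label. The difference for Pck1 to Pck2 was 0.56 in WT and -1.07 in the Tet2-/- label, and that for Slc2a2 to Slc2a1 was -0.00082 and -0.96. Single libraries carried much of these differences. For the first ratio, without WT IR replicate 1 its difference in WT was -0.87, and in the Tet2-/- label it was -0.54 without Tet2-/- IR replicate 3 and -0.24 without Tet2-/- baseline replicate 2. The difference for Pck1 to Pck2 stayed above 0 in WT and below 0 in the Tet2-/- label whichever library was left out, but was 0.21 without WT IR replicate 3 and -0.59 without Tet2-/- IR replicate 2. That for Slc2a2 to Slc2a1 ran from -0.33 to 0.31 in WT and was -0.49 in the Tet2-/- label without Tet2-/- IR replicate 1. The contrast between the labels was not tested. Averaged over both labels the differences were -0.87, -0.25 and -0.48. A two-sided exact permutation test of these averages, with IR and baseline exchanged within each label (400 arrangements, smallest possible p of 0.005), gave p = 0.34, 0.605 and 0.23. After adjustment over the 3 ratios these were 0.51, 0.605 and 0.51. For the first 2 ratios the labels moved opposite ways, so the averages partly cancel. The test therefore does not speak for either label alone.

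**Figure D4:**
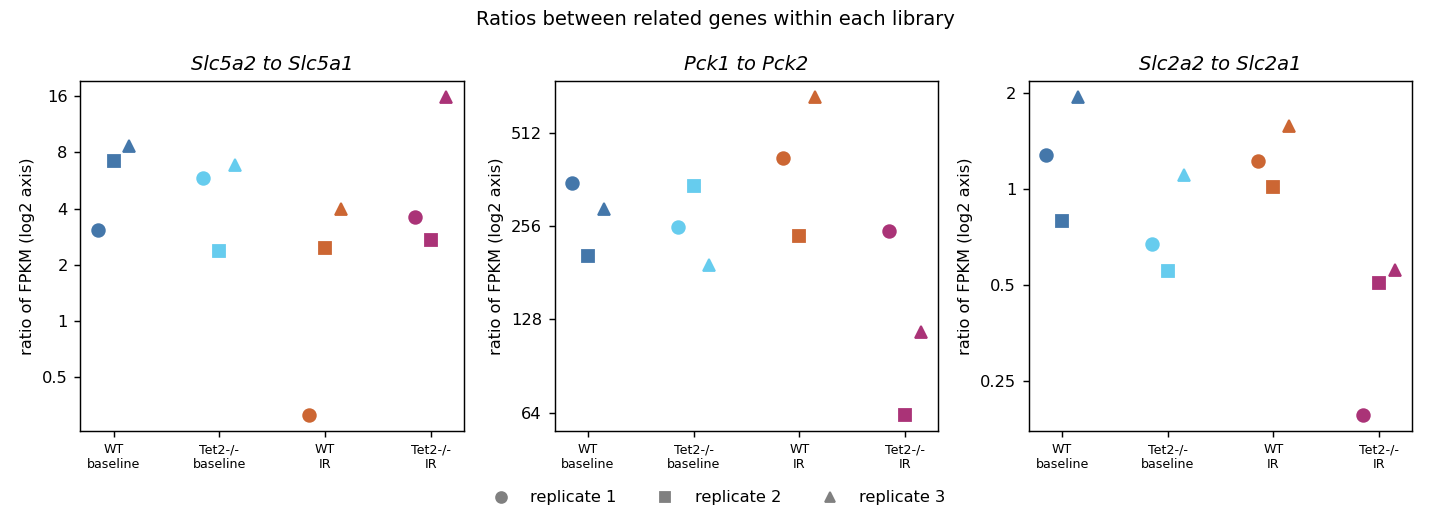
Ratio of FPKM within each library (vertical axis, log2 scale) for Slc5a2 to Slc5a1, Pck1 to Pck2 and Slc2a2 to Slc2a1 in the 4 groups (horizontal axis), with symbols for the replicate number. Tet2-/- IR libraries lie between 0.196 and 0.557 for Slc2a2 to Slc2a1, below all WT IR libraries. They overlap the Tet2-/- baseline libraries, the lowest of which lies at 0.555. WT IR replicate 1 lies at 0.314 for Slc5a2 to Slc5a1.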

How the data were processed

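The authors aligned reads with STAR and counted them on mm9 RefSeq transcripts with HOMER, tools named without versions in the submitters' notes. The deposited estimated counts come in steps of 0.5 (38.7% of values not whole) and were rounded. FPKM values, also deposited by the authors, served for levels, ratios and likeness. The transcript with the highest total stood for each symbol.

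Counts were tested with edgeR 4.0.16 (quasi-likelihood, TMM, filterByExpr, Benjamini-Hochberg over all genes tested) in R 4.3.3, each comparison fitted on its own 6 libraries and the interaction on all 12. Scripts were tested on simulated data. Members, lists and tests were chosen with earlier results of these data known, and so was the naming rule. It takes all members, the 2 genes most like each, up to 3 called genes a direction from each of 4 pathway lists, 8 preset genes and the checks Tet2, Havcr1 and Lcn2. Some genes the rule names are not reported here.

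Deviations of same-numbered WT baseline and WT IR libraries correlated at 0.384, 0.35 and 0.371, a hint of pairing from the data, although the kidneys came from different mice. The fits given first have no block, and blocked values of this comparison stand beside the members and lists whose calls they change. The alternatives were DESeq2 1.42.0, limma 3.58.1 on log2 FPKM, other scalings, filters, fits and transcripts, the replicate block and libraries left out.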

Additional observations from a re-analysis of the deposited data

Results flagged for a closer look

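For 2 of the 9 genes the effect of IR differed between the genotype labels by a test of the difference itself. The log2 effect of IR on Slc2a5 was lower in the Tet2-/- label than in WT by a difference of -3.40 (edgeR interaction, adjusted p = 0.0079), and it stayed called whichever of the 12 libraries was left out (-3.77 to -2.76, adjusted p from 0.0016 to 0.0209). For Fbp1 the difference was -1.33 (adjusted p = 0.0460), which kept its call only without WT IR replicate 2 and without Tet2-/- IR replicate 3. No group was large enough to look for single samples that stand apart by a fixed criterion.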

How the results depend on the processing

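No alternative reversed the direction of a called member, and the 3 ratios, tested as averages over both labels, stayed uncalled throughout. For IR in WT kidneys the count of members called lower went from 0 to 1, G6pc, under DESeq2 (-1.67, adjusted p = 0.00086), the replicate block (-1.63) and a fit of all 12 libraries (-1.68). For the labels after IR it went from 2 to 5 under DESeq2, which added Slc5a1, Pck1 and G6pc, to 4 in the fit of all 12 libraries and to between 0 and 1 without single libraries. Without Tet2-/- IR replicate 1 it was 0, and without Tet2-/- IR replicate 2 the call was Slc5a1 alone. For IR in the Tet2-/- label it ran from 3 to 5 without single libraries. For the interaction it went from 2 to 3 under DESeq2, which added Pck1 (-1.57, adjusted p = 0.0234), to 4 with the block, which added G6pc and Slc5a1, to 1 with limma on log2(FPKM + 1), where Fbp1 was at -1.20 (adjusted p = 0.0501), to between 1 and 2 without single libraries and to 0 without WT baseline replicates 2 and 3. Apart from these, the block made 1 other change to a member's call, G6pc after IR (-1.61, adjusted p = 0.0125). For IR in the Tet2-/- label, deviations of same-numbered libraries correlated at 0.0984, 0.334 and 0.271. Between the labels the correlations were -0.157, -0.193 and 0.109 at baseline and 0.0102, 0.226 and 0.369 after IR. The numbers were not read as pairs in these comparisons.

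Among all genes, the calls lower and higher under DESeq2 were 490 and 488 for IR in WT, 298 and 23 at baseline, where edgeR called 0 and 2, 872 and 770 after IR, where edgeR called 623 and 373, and 1600 and 1210 in the interaction. With the block they were 559 and 428 for IR in WT, 2 and 2 at baseline, 616 and 477 after IR and 1077 and 1024 in the interaction. The fits without a block gave 142 and 234 for IR in WT and 902 and 634 in the interaction. A fit of all 12 libraries gave 258 and 373 for IR in WT and 879 and 714 after IR. For the interaction, limma on log2(FPKM + 1) gave 596 and 1069. Scaling by total counts moved the median of all genes from 0.04 to 0.27 for IR in the Tet2-/- label and from 0.10 to 0.24 in the interaction.

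Uncalled members changed sign as follows. Without WT baseline replicates 2 and 3, a fit with 1 WT baseline library, IR in WT gave -0.0900 for Pcx and -0.0787 for Pck2. In that setting the baseline labels gave 0.69 for Slc5a2, -0.14 for Slc2a5 and -0.0651 for Pck1. The interaction gave 0.0908 for Pck2 and -0.59 for Slc5a2. The interaction of Pck2 was 0.12 with library sizes, 0.13 with limma at a pseudocount of 1 and 0.14 at 0.1. Without single libraries, IR in WT ran from -0.76 to 0.29 for Slc2a5, -0.0478 to 0.22 for Pcx and -0.0355 to 0.20 for Pck2, IR in the Tet2-/- label from -0.0891 to 0.19 for Pck2, the baseline labels from -0.0036 to 0.22 for Slc5a1, -0.56 to 0.22 for Slc5a2 and -0.035 to 0.31 for Slc2a5, the labels after IR from -0.43 to 1.02 for Slc5a2, and the interaction from -0.15 to 1.29 for Slc5a2, -0.50 to 0.052 for Slc2a2 and -0.19 to 0.13 for Pck2. The cause of these changes was not tested.

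Each group held 3 libraries, and several member calls rested on the choice of tool or on a single library, as given above.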

Other observations

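Markers of other cell types that a kidney sample can hold were counted in the same fits. Over all genes tested, 11.6% were called lower and 12.7% higher by IR in the Tet2-/- label. The shares were 0.887% and 1.46% for IR in WT and 3.85% and 2.3% between the labels after IR. Of 10 leukocyte markers, 5 were called higher and 1 lower by IR in the Tet2-/- label, 1 of 9 higher by IR in WT and 3 of 9 higher between the labels after IR. Their summed level was 20.7 to 27.4 FPKM in WT baseline, 22.0 to 35.1 in Tet2-/- baseline, 23.9 to 30.5 in WT IR and 76.8 to 142 in Tet2-/- IR libraries. The neutrophil genes S100a8 and S100a9, named after their values were seen, made up most of the sum in Tet2-/- IR libraries, at 27.4 to 47.2 and 33.1 to 65.0 FPKM. The macrophage gene Csf1r, also named after its values were seen, was called lower by IR in that label (-2.69). The median over the 10 markers overlapped between the IR and baseline libraries of the Tet2-/- label, at 0.498 to 2.95 and 0.401 to 0.664 FPKM. Hepatocyte markers, listed because the liver is the other main site of glucose production, were called lower by IR in 2 of 6 in the Tet2-/- label and in 2 of 7 in WT. Both times these were Cyp2e1 and Ttr, named after their values were seen, while the defining hepatocyte marker Alb was below 1 FPKM in every library and Ahsg, Cps1 and Tat were at most 0.021, 0.002 and 0.018 FPKM. Of 2 enterocyte markers tested, 1 was called higher by IR in WT and 1 lower between the labels after IR. This was Apoa4 in both cases, while Sis and Cdx2 were at 0 in every library and Lct and Fabp2 were at most 0.016 and 0.019 FPKM. Adipocyte markers gave 1 of 4 higher by IR in the Tet2-/- label and 5 of 10 higher in the interaction. Both skeletal muscle markers tested were called lower by IR in the Tet2-/- label. All 7 muscle markers listed together summed to at most 1.68 FPKM in any library, so these values were near the floor. The single adrenal cortex marker tested was not called. With the replicate block, IR in WT called 3 hepatocyte markers lower and 1 higher, 3 adipocyte markers lower, 1 leukocyte marker lower and 1 higher, and 1 skeletal muscle marker lower. The part of these cells in the members' values was not tested.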
